A study of Mus musculus with 12 samples.

Results

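A set of 10 genes of early blood progenitors, several of them activated in T cell acute leukaemia, was followed through 12 RNA-seq libraries of sorted mouse thymic pre-T cells. They were chosen by name, with earlier results of these data known. They are the cytokine receptor gene Flt3, the surface glycoprotein gene Cd34, and the transcription factor or cofactor genes Spi1, Bcl11a, Mef2c, Hhex, Lyl1, Tal1, Lmo2 and Erg. All 10 are among the 43629 genes of the count table; 9 were among the 13944 genes that passed a filter on low counts, and Lmo2 was not. The 12 libraries come from thymus of C57BL/6 mice and form 3 groups of 4 biological replicates. Control DN3a and control DN3b cells have the genotype Zfp36l1fl/fl, Zfp36l2fl/fl, and the third group, labelled DCKO DN3 (here DCKO), has the genotype Zfp36l1fl/fl, Zfp36l2fl/fl, CD2cre. Every group therefore carries the floxed alleles, and the controls carry no Cre. Cre is driven by CD2 regulatory sequence, which is active in lymphoid cells; cells with Cre and without floxed alleles were not analysed here. For age, sex and pooling of animals, the sources used here give nothing.

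DN3 thymocytes lack CD4 and CD8 and rearrange the T cell receptor beta locus. DN3a cells have not yet passed the pre-T cell receptor checkpoint called beta selection, and DN3b cells have. ZFP36L1 and ZFP36L2 are RNA-binding proteins that recognise AU-rich elements in 3′ untranslated regions and promote mRNA decay. The progenitors that seed the thymus express a stem and progenitor programme, including the FLT3 receptor and the factors PU.1, LYL1, LMO2, HHEX, MEF2C, BCL11A and ERG, which is shut down stepwise as cells commit to the T lineage. When some of these genes stay on or are switched on again in thymocytes they act as oncogenes. TAL1 or LYL1 works with LMO2 in a DNA-binding complex, and MEF2C, HHEX and LYL1 mark an immature form of the leukaemia. The data allow 3 comparisons: the step from DN3a to DN3b in controls, and the double-knockout cells against each control stage. The labels give the DCKO cells as DN3, without a split into DN3a and DN3b. In the comparisons with DCKO, an effect of the genotype and a different mix of stages therefore cannot be told apart.

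The deposited count table holds 28479157 to 45975678 counts per library. Levels are given as CPM, counts scaled to 1e6 per library, on library sizes adjusted by the trimmed mean of M values (TMM). Zfp36l1 had 27.1 to 43.9 CPM in DN3a, 9.63 to 23.3 in DN3b, against 1.64 to 3.80 in DCKO; Zfp36l2 had 341 to 685, 287 to 467 and 45.4 to 87.9 CPM. The DCKO libraries were thus below every control library for both targeted genes. On the first principal component, which held 52% of the variance, DN3b library 1 (-8.02) lay nearest to DN3a (-88 to -53), with the other DN3b libraries at 12.9 to 62.5 and DCKO at 35.9 to 54.7. DN3b library 1 was also the highest DN3b library for 6 of the 10 genes: Spi1, Bcl11a, Mef2c, Hhex, Tal1 and Erg. In DCKO library 1, 1 feature, ENSMUSG00000045999, took 9.02% of the counts. All 12 pre-T markers examined were present, the lowest at 37.8 CPM (Ptcra, the pre-T cell receptor alpha chain). With edgeR's quasi-likelihood test over all 12 libraries (adjusted p below 0.05, called below), 52.6% of all genes tested differed between DN3b and DN3a, 60.2% between DCKO and DN3a and 18.9% between DCKO and DN3b. Scaling by the upper quartile moved the median log2 fold change of all genes from -0.02 to -0.17, from -0.04 to -0.26 and from -0.02 to -0.10 in the 3 comparisons. The split of higher against lower calls moved with it, from 3815 against 3519 to 3021 against 4536 in DN3b against DN3a, from 4275 against 4116 to 3119 against 5528 in DCKO against DN3a, and from 1438 against 1197 to 1051 against 1644 in DCKO against DN3b.

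The genes differed widely in abundance. Per kilobase of exon, the mean level in DN3a was 14.1 CPM per kb for Erg, 1.24 for Flt3, 0.67 for Bcl11a and 0.233 for Mef2c. Spi1, Lyl1, Tal1 and Lmo2 lay close together at 0.134, 0.13, 0.12 and 0.107 CPM per kb, followed by Hhex at 0.0787 and Cd34 at 0.0526. The last 6 genes were scarce, each under 1 CPM on average and with 0 to 30 counts in a library, so their values carry a large counting error and are given with their counts. In bulk libraries, fewer cells that express a gene and less RNA per cell cannot be told apart.

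**Figure D1:**
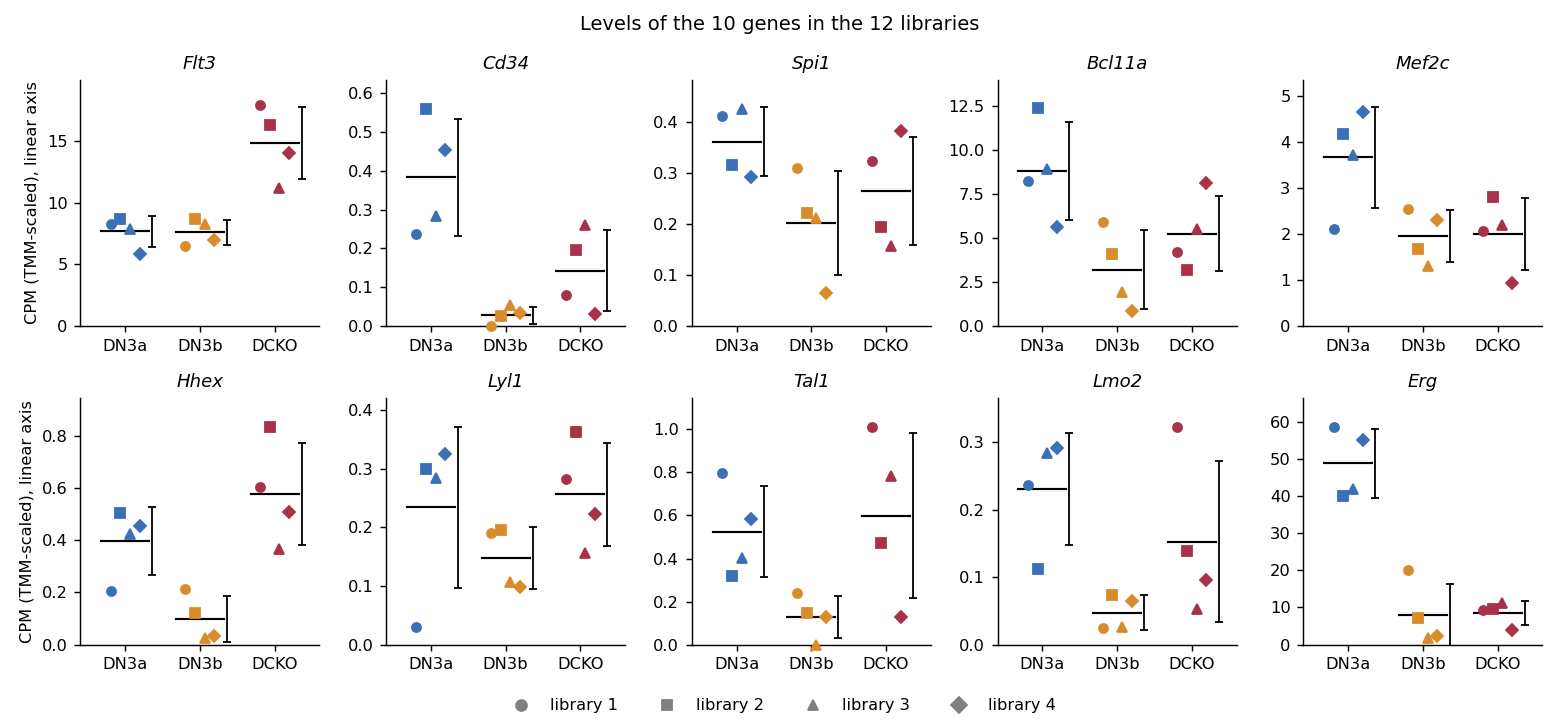
CPM on TMM-scaled library sizes (linear axes from 0, a scale for each gene) of the 10 genes in the 4 libraries of control DN3a, control DN3b and DCKO. Symbols are libraries, horizontal lines group means and whiskers 1 SD (n = 4; a whisker that would pass below 0 ends at the axis). Erg was above 39 CPM in every DN3a library and under 21 in every other library, while Flt3 was above 11 CPM in every DCKO library and under 9 in every control library.

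Between DN3a and DN3b in controls, 6 of the 9 genes that could be fitted were lower in DN3b (Cd34, Bcl11a, Mef2c, Hhex, Tal1 and Erg), none was higher, and Flt3, Spi1 and Lyl1 did not pass the test. Across all genes tested, 25.2% were called lower. The median log2 fold change of the 9 was -1.45, against -0.02 over all genes. Cd34 passed the low-count filter only through its DN3a libraries. Hhex, Lyl1 and Tal1 passed it only through libraries of DN3a and DCKO. The calls of Cd34, and those of Hhex and Tal1 that involve DN3b, are therefore not independent of the filter. The same holds for the part of these genes in the numbers. The libraries of the groups did not overlap for 3 of the 9 (Cd34, Tal1 and Erg), against 47.9% of all genes tested, and for Lmo2 as the fourth of 10. In DCKO against DN3a, Flt3 was higher, Cd34, Mef2c and Erg were lower and 5 genes were not called, against 30.7% of all genes higher and 29.5% lower. In that comparison the groups did not overlap for Flt3 and Erg, against 54.9% of all genes. In DCKO against DN3b, 3 genes were higher (Flt3, Hhex and Tal1), none was lower and 6 were not called, against 10.3% of all genes higher; the groups did not overlap for Flt3 and Hhex, against 20.9% of all genes. Counted in either direction, 6, 4 and 3 of the 9 were called in the 3 comparisons. The first count was 3 without DN3a library 2 or DN3b library 3, where 6426 of 14062 and 6253 of 14169 genes tested were called. Without DN3a library 2, Cd34 was not fitted. The second was 2 when library 2, 3 or 4 of DN3a or library 1 or 4 of DCKO was left out. Those fits called 7622 to 8231 of all genes tested. With DCKO libraries 1 and 2 left out together, edgeR called 0 of 10 genes in DCKO against DN3b, where it called 6.51% of all genes tested, and 3 of the 10 had an unadjusted p under 0.05. The comparisons share libraries pairwise and are not independent of each other.

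**Figure D2:**
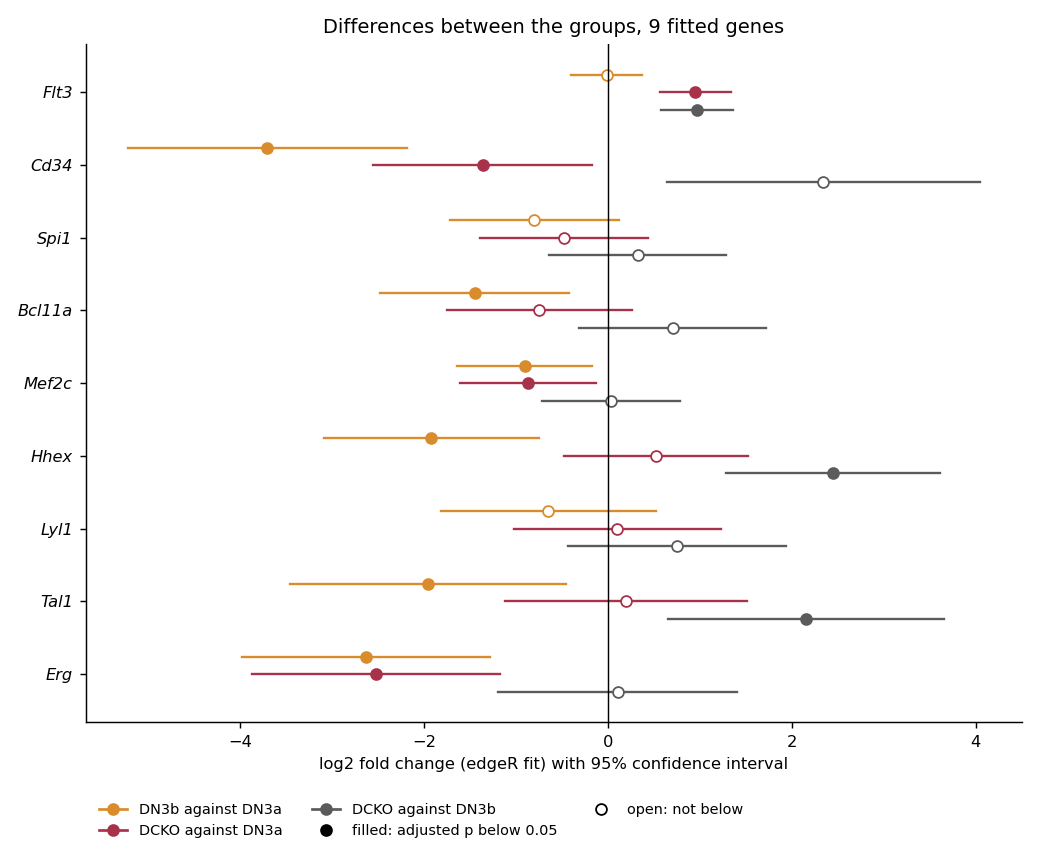
Log2 fold changes of the 9 fitted genes in the 3 comparisons, with 95% confidence intervals from the edgeR fit (horizontal lines). Filled points have an adjusted p below 0.05; Lmo2 was not fitted. Flt3 stands at 0.95 and 0.97 in both comparisons of DCKO and at -0.02 between the control stages, and Erg at -2.63 and -2.52 against DN3a and at 0.11 between DCKO and DN3b.

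Flt3 (chr5:147330741-147400489, minus strand, GRCm38) encodes the receptor tyrosine kinase for FLT3 ligand, which supports lymphoid and myeloid progenitors. It had 8.29, 8.69, 7.84 and 5.88 CPM in the 4 DN3a libraries, 6.48, 8.67, 8.25 and 7.0 in DN3b, and 17.9, 16.3, 11.2 and 14.0 in DCKO. Both control stages covered the same range, and every DCKO library lay above every control library. The means were 7.68 ± 1.25, 7.60 ± 1.03 and 14.9 ± 2.90 CPM (SD, n = 4). By edgeR's quasi-likelihood test, Flt3 was higher in DCKO than in DN3a by 0.95 ± 0.18 on the log2 scale (SE; 95% interval 0.56 to 1.34; adjusted p = 0.00059), a 1.93-fold difference. Against DN3b the log2 difference was 0.97 ± 0.18 (0.58 to 1.35; adjusted p = 0.00291). Between the control stages it was -0.02 ± 0.18 (-0.40 to 0.37; adjusted p = 0.946). With DCKO libraries 1 and 2, the highest for this gene, left out together, the difference to DN3a was 0.69 (adjusted p = 0.0189) and that to DN3b was 0.73 and no longer called (adjusted p = 0.0621).

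The promoter of Flt3 is shown because this gene was the one called higher in DCKO against both control stages. RefSeq's GRCm38.p6 table gives 300 bases around its start (chr5:147400440-147400739, minus strand, written 5′ to 3′ along the gene). Capitals mark the ETS letters GGAAGT, here on the opposite strand; 23.8% of the 32851 promoters in the table hold them on either strand. It also holds 2 E-boxes (CANNTG, in 72.3% of promoters), and neither the GATA letters AGATAA (11.2%) nor the RUNX letters TGTGGT (16.8%).
Flt3 promoter: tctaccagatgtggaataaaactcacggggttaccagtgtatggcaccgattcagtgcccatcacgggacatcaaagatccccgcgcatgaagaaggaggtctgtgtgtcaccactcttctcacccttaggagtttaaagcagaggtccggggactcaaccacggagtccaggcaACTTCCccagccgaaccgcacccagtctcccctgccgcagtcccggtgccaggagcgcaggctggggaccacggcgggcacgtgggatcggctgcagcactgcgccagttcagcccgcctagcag

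Cd34 (chr1:194938819-194961279, plus strand) encodes a sialomucin of stem and progenitor cells. It had 8, 30, 12 and 14 counts in the DN3a libraries, 0, 1, 2 and 1 in DN3b and 2, 7, 10 and 1 in DCKO. Every DN3a library was above every DN3b library, and the DCKO libraries reached from the DN3b range into that of DN3a. The means were 0.384 ± 0.15, 0.0275 ± 0.0219 and 0.142 ± 0.105 CPM (SD, n = 4); the count of 0 in DN3b library 1 allows up to 0.0714 CPM, that is 3 counts. Pooled over libraries, the DN3b level was 0.0664 of the DN3a level (counting interval 0.0175 to 0.178, which covers counting error only). By edgeR's quasi-likelihood test Cd34 was lower in DN3b than in DN3a, with log2 -3.70 ± 0.70 (adjusted p = 0.000843). It was called with each of the 11 single libraries left out that allowed a fit. It passed the low-count filter only through its DN3a libraries, where it is high, and without DN3a library 2 it failed the filter. In DCKO it was lower than in DN3a by an amount near the threshold, log2 -1.36 ± 0.55 (adjusted p = 0.0468). That call was lost when library 3 or 4 of DN3a, library 2 of DN3b, or library 1, 2 or 4 of DCKO was left out (adjusted p 0.0559 to 0.112), and with DESeq2 (adjusted p = 0.0822). DCKO against DN3b gave log2 2.34 ± 0.79 and was not called (adjusted p = 0.0547), but was called without DCKO library 4 (adjusted p = 0.0226).

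Spi1 (chr2:91082390-91115756, plus strand) encodes PU.1, an ETS factor of myeloid and early lymphoid cells that is silenced during T commitment. It had 14, 17, 18 and 9 counts in DN3a, 13, 9, 8 and 2 in DN3b and 8, 7, 6 and 12 in DCKO. The groups overlapped, and the gene was not called in any comparison. Its log2 fold changes were -0.80 ± 0.42 for DN3b against DN3a (95% interval -1.72 to 0.12; adjusted p = 0.129, edgeR), -0.48 ± 0.42 for DCKO against DN3a (-1.39 to 0.44) and 0.32 ± 0.45 for DCKO against DN3b (-0.64 to 1.29). The intervals allow differences of more than 1 log2 unit, so at this depth no difference was detectable, which does not show that the levels were alike.

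Bcl11a (chr11:24078056-24174123, plus strand) encodes a zinc finger repressor needed for lymphoid progenitors and B cells. It had 8.23, 12.4, 8.96 and 5.65 CPM in DN3a, 5.91, 4.12, 1.94 and 0.879 in DN3b, and 4.19, 3.20, 5.52 and 8.13 in DCKO. DN3a was highest on average at 8.82 ± 2.80 CPM, and the lowest DN3a library lay just below the highest DN3b library. Bcl11a was lower in DN3b than in DN3a, with log2 -1.45 ± 0.47 (95% interval -2.48 to -0.43; adjusted p = 0.0208, edgeR); the call was lost without DN3a library 2 (adjusted p = 0.0631) or DN3b library 3 (adjusted p = 0.0605). The DCKO mean of 5.26 ± 2.14 CPM lay between the control means, with log2 -0.75 ± 0.47 against DN3a (-1.75 to 0.26; adjusted p = 0.181) and 0.70 ± 0.47 against DN3b (-0.32 to 1.72; adjusted p = 0.318).

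Mef2c (chr13:83504034-83667080, plus strand) encodes a MADS-box factor of lymphoid and myeloid progenitors and an oncogene of immature T cell leukaemia. It had 2.12, 4.18, 3.72 and 4.65 CPM in DN3a, 2.55, 1.67, 1.3 and 2.31 in DN3b, and 2.06, 2.81, 2.20 and 0.925 in DCKO. DN3a library 1 lay within the range of the other groups, and the other 3 DN3a libraries were above it. Mef2c was lower in DN3b (log2 -0.91 ± 0.34, adjusted p = 0.0396, edgeR) and in DCKO (-0.87 ± 0.34, adjusted p = 0.0415) than in DN3a, and the 2 differed from each other by 0.03 ± 0.35 (95% interval -0.71 to 0.78). Both calls were near the threshold. The first was lost when library 2, 3 or 4 of DN3a or library 2 or 3 of DN3b was left out (adjusted p 0.0728 to 0.104), and the second when library 2, 3 or 4 of DN3a or library 1, 3 or 4 of DCKO was (adjusted p 0.0535 to 0.105). With no low-count filter neither was called (adjusted p = 0.0504 and 0.0517, edgeR).

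Hhex (chr19:37434810-37440731, plus strand) encodes a homeobox factor of early lymphoid progenitors and a target of LMO2 in leukaemia. It had 7, 27, 18 and 14 counts in DN3a, 9, 5, 1 and 1 in DN3b, and 15, 30, 14 and 16 in DCKO. All 4 DCKO libraries, at 0.366 to 0.835 CPM, were above all 4 DN3b libraries, at 0.0265 to 0.214 CPM, while DN3a at 0.207 to 0.504 CPM overlapped both. Hhex was lower in DN3b than in DN3a (log2 -1.92 ± 0.54, adjusted p = 0.00965, edgeR), in 12 of 12 fits with a library left out. It was higher in DCKO than in DN3b by 2.45 ± 0.54 log2 units (95% interval 1.29 to 3.60, adjusted p = 0.0076), also in 12 of 12 such fits. Hhex passed the low-count filter only through libraries of DN3a and DCKO, where it is higher. Both calls are therefore not independent of the filter. Pooled counts gave a DCKO level 5.44 times that of DN3b (counting interval 3.14 to 9.99). DCKO and DN3a differed by 0.52 ± 0.46 log2 units, which was not called (-0.47 to 1.52; adjusted p = 0.343). With DCKO libraries 1 and 2 left out together, DCKO against DN3b gave 2.04 and was not called (adjusted p = 0.0934); with DN3b library 1 left out as well it was 2.72 (adjusted p = 0.0338).

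Lyl1 and Tal1 encode basic helix-loop-helix factors, either of which can form a DNA-binding complex with LMO2, a LIM-only bridging protein. Lyl1 (chr8:84701457-84704715, plus strand) had 1, 16, 12 and 10 counts in DN3a, 8, 8, 4 and 3 in DN3b, and 7, 13, 6 and 7 in DCKO. The groups overlapped, and no difference was called, with log2 -0.65 ± 0.54 for DN3b against DN3a (adjusted p = 0.328, edgeR), 0.10 ± 0.52 for DCKO against DN3a (adjusted p = 0.881) and 0.75 ± 0.55 for DCKO against DN3b (adjusted p = 0.365). Exons of Lyl1 overlap those of Nfix on the opposite strand. Nfix had 3361 counts over all libraries. The sources used here do not state whether counting used the strand, so how reads of the overlap were counted, or whether they were left out, is not known.

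Tal1 (chr4:115056426-115071755, plus strand) is normally expressed in stem cells and the erythroid and megakaryocytic lineages and is activated in many T cell leukaemias. It had 27, 17, 17 and 18 counts in DN3a, 10, 6, 0 and 4 in DN3b, and 25, 17, 30 and 4 in DCKO. DN3b lay below DN3a in every library. Of the DCKO libraries 1, 2 and 3 were in or above the DN3a range and library 4 was in the DN3b range. Tal1 was lower in DN3b than in DN3a (log2 -1.96 ± 0.69, adjusted p = 0.0306, edgeR) and higher in DCKO than in DN3b (2.15 ± 0.70, adjusted p = 0.0468). The first call was lost without DN3a library 1 or 4 or DN3b library 2, 3 or 4 (adjusted p 0.0555 to 0.072). The second was called in only 3 of 12 fits with a library left out, those without DN3a library 1, DN3b library 1 or DCKO library 4, and the adjusted p over the 12 ran from 0.0157 to 0.135; it was also lost with upper quartile scaling (adjusted p = 0.052) and with limma-voom (adjusted p = 0.0772). The count of 0 in DN3b library 3 allows up to 0.0796 CPM. Tal1 passed the low-count filter only through libraries of DN3a and DCKO, so both calls are not independent of the filter. DCKO against DN3a gave log2 0.19 ± 0.61 (95% interval -1.12 to 1.51; adjusted p = 0.798).

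Lmo2 (chr2:103957986-103981878, plus strand) was the scarcest of Lyl1, Tal1 and Lmo2, with 8, 6, 12 and 9 counts in DN3a, 1, 3, 1 and 2 in DN3b, and 8, 5, 2 and 3 in DCKO. Every DN3a library was above every DN3b library, and the DCKO libraries spread across both ranges. An exact two-sided permutation test over 4 against 4 libraries, whose smallest possible p is 0.0286, gave log2 -2.29 for the ratio of mean CPM in DN3b and DN3a (p = 0.0286; 0.0857 after Benjamini-Hochberg adjustment over the 3 comparisons of Lmo2). The test took the libraries as unpaired, although the replicate numbers pair the control stages, which limits its p-value for DN3b against DN3a. DCKO gave -0.60 against DN3a (exact p = 0.371) and 1.69 against DN3b (exact p = 0.0857, adjusted 0.129). In the authors' deposited table, which tests the gene, Lmo2 was lower in DN3b than in DN3a by an adjusted p of 0.0108.

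Erg (chr16:95359169-95586593, minus strand) encodes an ETS factor of stem cells and endothelium that is silenced as T cells mature. It was the most abundant of the 10 genes per length in DN3a. It had 58.4, 39.9, 41.9 and 54.9 CPM in DN3a, 20.1, 7.24, 1.65 and 2.25 in DN3b, and 9.31, 9.60, 11.2 and 3.80 in DCKO. Every DN3a library was above every DN3b and DCKO library, and DN3b library 1 stood above the other 3 DN3b libraries. Erg was lower in DN3b than in DN3a by log2 -2.63 ± 0.62 (95% interval -3.98 to -1.28; adjusted p = 0.00361, edgeR) and in DCKO than in DN3a by -2.52 ± 0.62 (-3.87 to -1.18; adjusted p = 0.00365), in 12 of 12 fits with a library left out in each case. Without DN3b library 1 the first log2 difference was -3.70. DCKO and DN3b differed by 0.11 ± 0.60 log2 units (-1.19 to 1.41; adjusted p = 0.922), and by 1.18 without DN3b library 1 (adjusted p = 0.101). With the control replicate numbers as a block, Erg gave log2 -3.16 for DN3b against DN3a (adjusted p = 0.00111).

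The promoter of Erg at the third start site in RefSeq's table (chr16:95459299-95459598, minus strand, 300 bases, GRCm38.p6) is shown because Erg fell the most among the abundant genes and this is the start site of the 3 in the table that holds matches. Capitals mark the GATA letters AGATAA on the opposite strand, which 11.2% of promoters hold on either strand; it also holds 2 E-boxes. The other 2 start sites of Erg in the table hold none of the 4 motifs searched. These are letters only and no site was tested.
Erg promoter: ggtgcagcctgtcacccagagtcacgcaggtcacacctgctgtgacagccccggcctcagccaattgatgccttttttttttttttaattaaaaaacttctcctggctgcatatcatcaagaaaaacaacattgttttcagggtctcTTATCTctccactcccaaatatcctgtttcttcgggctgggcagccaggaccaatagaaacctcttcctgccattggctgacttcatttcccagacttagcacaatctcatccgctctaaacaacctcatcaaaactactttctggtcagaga

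The 3′ untranslated regions were searched for AU-rich letters, since the 2 deleted proteins bind such elements. The pentamer ATTTA was found in 7 of the 10 genes, from 1 in Flt3 and Cd34 to 11 in Mef2c, and not in Spi1, Lyl1 or Tal1; Bcl11a held 7. Of all 20996 untranslated regions, 65.0% hold it, and 97.1% and 98.8% do at the lengths of Bcl11a and Mef2c. The heptamer TATTTAT was found at 2 places in Bcl11a and once each in Hhex and Lmo2, and TTATTTATT in none of the 10. Among untranslated regions of like length, 56.0% hold the heptamer for Bcl11a, 23.2% for Hhex and 20.0% for Lmo2. The 4 matches, in capitals with 10 bases on each side, are shown because Hhex was one of the genes called higher in DCKO than in DN3b, whereas Bcl11a was not called and Lmo2 was not fitted. Flt3, called higher against both stages, held 1 ATTTA and no heptamer. They lie in chr11:24167495-24167521, chr11:24168163-24168189, chr19:37440087-37440113 and chr2:103981651-103981677 on the plus strand of GRCm38 (GENCODE M21 transcripts).
Bcl11a, first match: ggcactatagTATTTATattgaagctt
Bcl11a, second match: tgggagtcacTATTTATtattgcttat
Hhex: aatttatttcTATTTATgagaggtaat
Lmo2: accagacaaaTATTTATagcgatgttg

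Relatives of several of these genes were abundant, and they did not all move with them. Of 8 fitted family relatives, 5 were lower and 2 higher in DN3b than in DN3a, 1 lower and 2 higher in DCKO than in DN3a, and none lower and 2 higher in DCKO than in DN3b. Among all 13944 genes tested, 3815 were higher and 3519 (25.2%) lower in DN3b than in DN3a. The corresponding numbers were 4275 (30.7%) and 4116 (29.5%) in DCKO against DN3a, and 1438 (10.3%) and 1197 in DCKO against DN3b. The same background holds for the gene lists below where no other setting is named. Mef2a, a paralogue of Mef2c, had 35.0 to 48.3 CPM in DN3a and 59.7 to 97.3 CPM in DN3b, with DCKO at 67.8 to 84.7, and rose by 0.97 ± 0.15 log2 units (adjusted p = 0.000251, edgeR) and 0.90 ± 0.15 (adjusted p = 0.000256) against DN3a, where Mef2c fell. Lmo4, a LIM-only relative of Lmo2, rose by 0.77 ± 0.16 log2 units in DN3b (adjusted p = 0.00134) and by 1.35 ± 0.16 in DCKO (adjusted p = 1.82e-05) against DN3a. Fli1, the ETS factor closest to Erg, had 90.2 to 133 CPM in all libraries and fell by 0.37 ± 0.09 log2 units in DN3b (adjusted p = 0.00351) and by 0.26 ± 0.09 in DCKO (adjusted p = 0.0198; 0.0592 without DN3a library 4 and 0.142 with DCKO libraries 1 and 2 left out together). Bcl11b, the T commitment paralogue of Bcl11a, was higher in DCKO than in DN3b by 0.69 ± 0.13 log2 units (adjusted p = 0.00384), and Lmo4 by 0.59 ± 0.15 (adjusted p = 0.0196; 0.0704 without DN3b library 2).

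**Figure D3:**
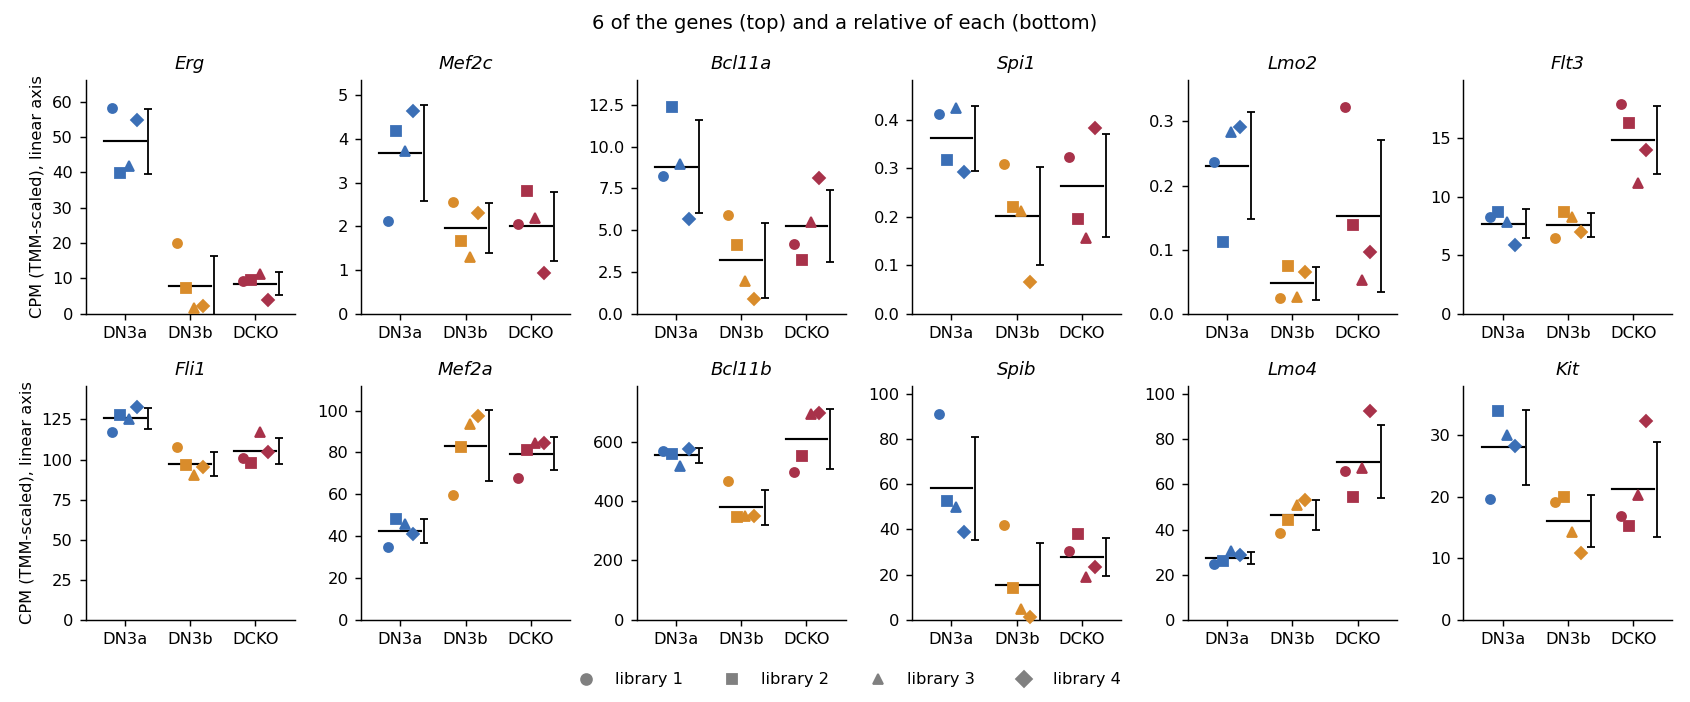
CPM on TMM-scaled library sizes (linear axes from 0) of 6 of the genes in the top row and of a relative of each in the bottom row, in the 12 libraries; symbols are libraries, horizontal lines means and whiskers 1 SD (n = 4; a whisker that would pass below 0 ends at the axis). The pairs were chosen after their values were seen. Mef2a is higher in DN3b and DCKO than in DN3a, while Mef2c is lower in both on average.

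Of 13 fitted partners of TAL1, LYL1 and LMO2, 6 were lower and 1 higher in DN3b than in DN3a, 3 lower and 1 higher in DCKO than in DN3a, and 3 were higher and none lower in DCKO than in DN3b. With upper quartile scaling the second comparison gave 7 lower and 1 higher, where 5528 of 13944 genes tested were lower and 3119 higher. With the replicate block the first gave 8 lower and 2 higher, where 4704 of 13715 were lower and 4529 higher. Tcf4, an E protein that dimerises with TAL1 and LYL1, fell by 0.75 ± 0.10 log2 units (adjusted p = 9.95e-05, edgeR) in DN3b and by 0.63 ± 0.10 (adjusted p = 0.000177) in DCKO against DN3a. Gata1, a partner of the complex in erythroid cells, had 3.68 to 9.26 CPM in DN3a, 1.01 to 3.05 in DN3b, against 1.93 to 2.90 in DCKO, and fell by 1.95 ± 0.38 log2 units (adjusted p = 0.00106) and by 1.40 ± 0.38 (adjusted p = 0.0061). Ssbp2, a single-stranded DNA-binding protein of the complex, fell by 0.56 ± 0.08 log2 units in DN3b against DN3a (adjusted p = 0.000199) and was higher in DCKO than in DN3b by 0.49 ± 0.08 (adjusted p = 0.00181). Tcf12, another E protein, was higher in DCKO than in DN3b by 0.33 ± 0.09 log2 units (adjusted p = 0.0192), a call lost without DN3b library 2 or 3 or DCKO library 1, 2 or 3 (adjusted p up to 0.0732), with upper quartile scaling (0.0674), and with DCKO libraries 1 and 2 left out together (0.172). Gata2 had no count in any library.

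Of 11 fitted genes among 17 other early progenitor genes, 5 were lower and 2 higher in DN3b than in DN3a, 4 lower and 2 higher in DCKO than in DN3a, and 2 lower and 4 higher in DCKO than in DN3b. Upper quartile scaling gave 6 lower and 0 higher in the first, where 4536 of 13944 genes tested were lower and 3021 higher. The replicate block gave 6 lower and 1 higher, where 4704 of 13715 were lower and 4529 higher. The median log2 fold changes of the 11 genes were -0.77, -0.40 and 0.56, against -0.02, -0.04 and -0.02 over all genes tested. Mycn, the MYC paralogue, had 14.3 to 31.4 CPM in DN3a, 1.4 to 8.14 in DN3b, against 1.5 to 4.31 in DCKO. It fell by 2.52 ± 0.53 log2 units (adjusted p = 0.0016, edgeR) and by 2.67 ± 0.53 (adjusted p = 0.000849) against DN3a. Nfe2, a leucine zipper factor of megakaryocytes, fell by 2.74 ± 0.58 log2 units in DN3b (adjusted p = 0.0018). Etv6, an ETS repressor, fell by 0.77 ± 0.11 log2 units in DN3b (adjusted p = 0.000129) and was higher in DCKO than in DN3b by 0.56 ± 0.11 (adjusted p = 0.00357).

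Cd44, an adhesion receptor of early thymocytes, had 1.33 to 4.25 CPM in DN3a, 1.46 to 2.58 in DN3b, against 6.95 to 10.7 in DCKO. No DCKO library overlapped a control library, and the differences were 1.81 ± 0.31 log2 units (adjusted p = 0.000272, edgeR) and 2.17 ± 0.31 (adjusted p = 0.000565). Gfi1b, a repressor of the erythroid and megakaryocytic lineages, had 0.227 to 1.83 CPM in the DN3a libraries, 0.846 to 3.57 CPM in those of DN3b and 3.71 to 8.66 CPM in those of DCKO. It was higher in DCKO than in DN3a by 2.72 ± 0.55 log2 units (adjusted p = 0.000926, edgeR). DCKO against DN3b gave log2 1.27 ± 0.51 and was not called (adjusted p = 0.102; 0.0432 with DESeq2), and DN3b against DN3a gave 1.46 ± 0.54 (adjusted p = 0.0364), a call lost without library 2, 3 or 4 of DN3a, 1, 2 or 3 of DN3b, or 1 of DCKO (adjusted p up to 0.0991). Hoxa7, a homeobox gene of progenitors, went the other way, from 1.88 to 7.18 CPM in DN3a and 1.89 to 8.08 in DN3b to 0.334 to 1.21 in DCKO, lower by log2 -2.59 ± 0.55 than in DN3b (adjusted p = 0.00607; 0.0977 with DCKO libraries 1 and 2 left out together). Against DN3a, Hoxa7 gave -2.67 ± 0.55 log2 units (adjusted p = 0.00104).

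**Figure D4:**
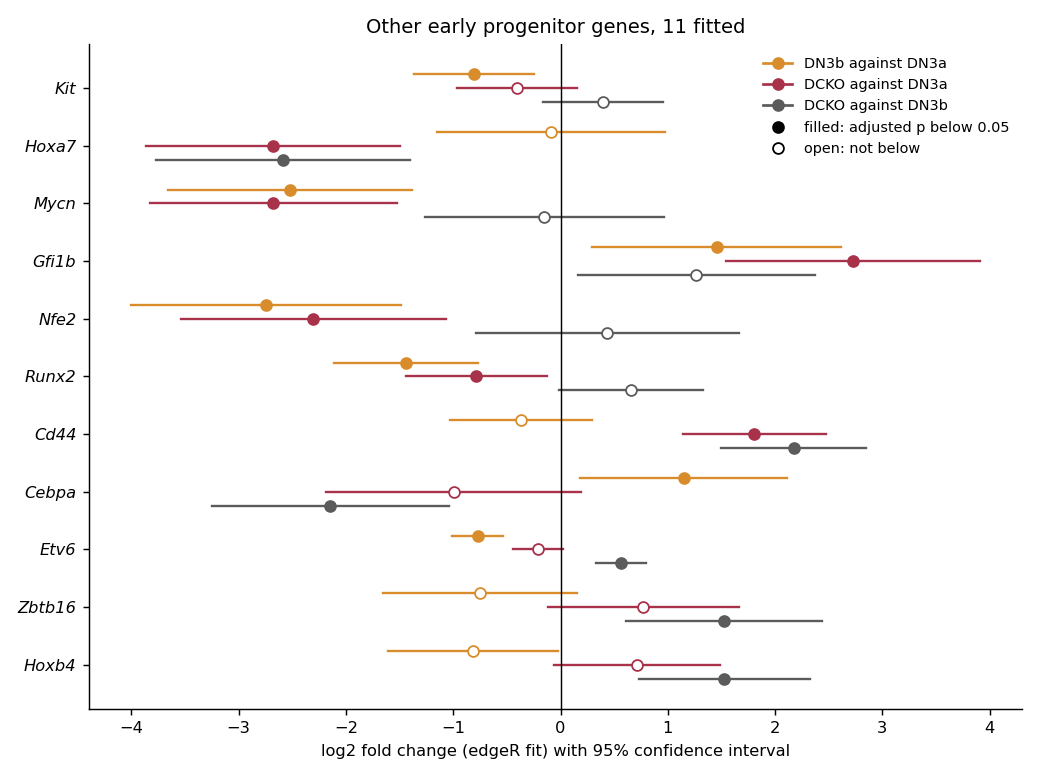
Log2 fold changes of the 11 fitted genes of the list of other early progenitor genes, with 95% confidence intervals from the edgeR fit; filled points have an adjusted p below 0.05. Cd44 is higher in both comparisons of DCKO, Hoxa7 lower in both, and Mycn and Nfe2 are lower against DN3a in DN3b and in DCKO.

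Of the 16 other T leukaemia oncogenes, 6 could be fitted, and Tlx1, a homeobox oncogene, had no count in any library. In DN3b against DN3a, 4 of the 6 were lower and 1 was higher; in DCKO against DN3a, 2 were lower and 1 higher; in DCKO against DN3b, 1 was higher. Myb, a factor of haematopoietic progenitors, fell by 0.80 ± 0.15 log2 units in DN3b against DN3a (adjusted p = 0.000863, edgeR) and was higher in DCKO than in DN3b by 0.84 ± 0.15 (adjusted p = 0.0025). Myc rose by 0.66 ± 0.14 log2 units in DN3b (adjusted p = 0.00179) and by 0.40 ± 0.14 in DCKO (adjusted p = 0.0248); the latter was lost when library 2 or 3 of DN3a or library 2 or 4 of DCKO was left out (adjusted p up to 0.0756), and with a stricter filter (0.0582), the replicate block (0.0777) and upper quartile scaling (log2 0.18, adjusted p = 0.263). Nkx2-1, a homeobox gene, was lower in DCKO than in DN3a by log2 -1.27 ± 0.37 (adjusted p = 0.0103; 0.113 with DCKO libraries 1 and 2 left out together).

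The T commitment regulators, some of which are known to silence progenitor genes, were all fitted. Of 12, 3 were higher and 3 lower in DN3b than in DN3a, 2 higher and 2 lower in DCKO than in DN3a, and 2 higher and 1 lower in DCKO than in DN3b. Upper quartile scaling gave 0 higher and 5 lower in the second, where 3119 of 13944 genes tested were higher and 5528 lower. With the replicate numbers that pair the control stages as a block, the first gave 4 higher and 5 lower, and 67.3% of all genes tested were called. Tcf7, the factor that starts the T programme, rose by 0.99 ± 0.18 log2 units in DN3b against DN3a (adjusted p = 0.000535, edgeR). Its relative Lef1 was lower in DCKO than in DN3b by log2 -1.28 ± 0.18 (adjusted p = 0.000547) and than in DN3a by -0.61 ± 0.18 (adjusted p = 0.0107). Ikzf1 rose by 0.63 ± 0.12 log2 units in DN3b (adjusted p = 0.000998).

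Markers of other cells that express the 10 genes were read beside them. The summed level of 12 myeloid markers was 24.3 to 34.9 CPM in DN3a, 5.30 to 14.4 in DN3b, against 12.9 to 28.7 in DCKO. Lyz2 had 18.2 to 29.8, 1.01 to 8.83 and 6.12 to 14.3 CPM in the 3 groups, and Cd68 had 2.6 to 4.28 CPM in all libraries. S100a8 and S100a9 had 3.47 and 4.88 CPM in DCKO library 1 and 1.12 and 2.93 CPM in DCKO library 4, against at most 0.0373 CPM in any control library. Mpo had at most 0.191 CPM, and 6 of the 12 stayed under 1 CPM in every library. The 11 dendritic cell markers summed to 111 to 290, 36.4 to 219 and 195 to 256 CPM, of which Ccr9, a chemokine receptor that thymocytes also express, made up 106 to 282, 28 to 208 and 185 to 242 CPM, and 5 of them, Siglech and Zbtb46 included, stayed under 1 CPM in every library. Of the other dendritic cell markers, H2-Aa had 0.443 to 0.989, 0.584 to 1.35 and 0.627 to 2.82 CPM. H2-Ab1 had 2.3 to 4.61, 4.75 to 8.49 and 3.48 to 7.34 CPM, while Itgax had 0.39 to 1.42, 0 to 0.548 and 0.0557 to 1.02 CPM. The 10 B cell markers summed to 47.0 to 61.5, 11 to 34.7 and 21.4 to 26.6 CPM, with Pax5 at no more than 0.0319 CPM. Cd79b alone made up 41.7 to 58.1, 9.4 to 31.7 and 18.4 to 24.1 CPM of these sums. For the endothelial markers, relevant to Erg and Cd34, the sums were 130 to 171, 86.2 to 138 and 95.2 to 215 CPM. Pecam1 alone made up 119 to 161, 69.4 to 118 and 73.0 to 144 CPM of them, and Kdr, Tek and Tie1 were at or near 0, at most 0.0784 CPM, in every library. Cdh5, an endothelial cadherin, had up to 4.17 CPM in the controls and 14.9 to 58.3 CPM in DCKO. Egfl7, on the same list, ranged over 1.45 to 3.87, 10.9 to 13.5 and 4.4 to 9.41 CPM by group. It was higher in DN3b than in DN3a by 2.24 ± 0.29 log2 units (adjusted p = 7.54e-05, edgeR). Of the 5 fitted endothelial markers, 1 was higher and 2 were lower in that comparison. The 10 innate lymphoid and NK markers summed to 54.0 to 67.5, 48.8 to 55.5 and 37.5 to 82.7 CPM. Of these, Gata3, also listed as a T commitment regulator, made up 30.2 to 36.8, 35.5 to 42.4 and 18.8 to 56.4 CPM. Tbx21 had 0 to 0.261, 0.452 to 1.37 and 2.2 to 3.76 CPM, and Zbtb16 had 3.33 to 6.57, 1.33 to 4.57 and 4.31 to 15.4 CPM. Id2 had 8.79 to 14.1, 2.71 to 8.05 and 3.48 to 5.97 CPM, and Rora 2.63 to 14.9, 0.398 to 6.88 and 1.61 to 14.9 CPM. The 8 thymic stroma markers summed to 75.4 to 130, 13.6 to 46.8 and 9.47 to 17.5 CPM, with Foxn1 at no more than 0.0651 CPM. Nearly all of that sum was Epcam, at 74.5 to 129, 12.2 to 45.5 and 8.55 to 16.5 CPM. The part of these cells in the levels of the 10 genes was not tested.

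Across the 12 libraries, the genes whose log2 CPM was most like that of a member, among 9265 genes compared, were Bcl2l14 and Paqr5 for Erg (Pearson r 0.983 for both), Fam76a and Mpzl3 for Flt3 (0.963 and 0.953), Synj2 and Tctex1d1 for Bcl11a (0.958 and 0.957), and Zfp943 and Bivm for Mef2c (0.936 and 0.921). For the 5 scarce fitted genes the highest correlations ran from 0.811 to 0.964 and rest on few counts, so their partners are not named. The 12 libraries share their groups, so these values describe likeness of pattern only.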

How the data were processed

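Total RNA of sorted pre-T cells was sequenced after ribosomal RNA removal with a stranded kit, per the labels' protocols. The submitters' processing notes name TopHat2 2.0.12, DESeq2 1.6.3, HTSeq and Trim Galore, with GRCm38; the annotation release and the counting's use of strand are not stated. The deposited table of raw read counts per gene was analysed. The deposited table of scaled signal values equals the counts times 1 constant per library (within 0.01%) and served no other purpose. The authors' deposited comparison tables give log2 fold changes, a test score and p-values; they were only quoted.

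Counts were tested with edgeR 4.0.16 (R 4.3.3; quasi-likelihood, TMM, filterByExpr with a count minimum of 10, 1 group term over 12 libraries, 9 residual degrees of freedom) and p-values were adjusted by Benjamini-Hochberg over all genes tested; SE is the absolute log2 fold change divided by the root of F. The test script was checked on simulated data. Lmo2 was compared by exact permutation (scipy 1.17.1). The alternatives were DESeq2 1.42.0, limma-voom (limma 3.58.1), upper quartile scaling, other filters, a replicate block, and libraries left out. The likeness ranking took genes whose log2 CPM averaged 2 or more (prior count 2). Gene symbols came from GENCODE M21 for 42462 of the 43629 identifiers. Figures used matplotlib 3.10.9.

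The replicates are labelled biological. Same-numbered DN3a and DN3b libraries deviated together from their group means (correlations across genes 0.443, 0.564, 0.354 and 0.521), so the numbers pair the control stages; DCKO numbers gave -0.257 to 0.119 and pair nothing. The gene lists and members were chosen with earlier results of these data known. Named genes are the members, up to 3 genes per list and comparison with the smallest adjusted p and 1 gene at or near 0, the 2 genes most like each of the 4 abundant members, and the 2 targeted genes; markers and figure pairs were added. Protein sequences were not used here. The erythroid and platelet marker list is not reported here.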

Additional observations from a re-analysis of the deposited data

Results flagged for a closer look

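Lyl1 stood apart in 1 DN3a library. DN3a library 1 had 0.0295 CPM, which is 1 count, whereas the other 3 DN3a libraries had 0.284 to 0.325 CPM. The gap to the nearest library was 0.862 of the group's range, above Dixon's 95% critical value for 4 samples. It was the 1 case among 30 combinations of gene and group checked, where chance alone gives about 1 in 20. Without that library, Lyl1 in DCKO against DN3a moved from 0.10 to -0.25 on the log2 scale and stayed uncalled.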

How the results depend on the processing

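Of 541 log2 values of the 10 genes under alternatives, 461 kept their direction and side of the threshold, 48 lost a call, 2 gained one (Cd34 in DCKO against DN3b without DCKO replicate 4, and Lmo2 in DN3b against DN3a, where edgeR without a low-count filter replaced the exact test) and 30 changed sign; all 60 levels stayed within 1 SD. No called difference changed sign. Of the 6, 4 and 3 genes called, a stricter filter left 3 in DN3b against DN3a and 1 in DCKO against DN3b. Under it the scarce genes are not tested, and 6919 and 2554 of 11940 genes tested were called. No filter, and the replicate block, each left 2 in DCKO against DN3a, where 8167 of 23919 and 7648 of 13479 genes tested were called. Leaving out 1 library gave 3 to 7, 2 to 4 and 2 to 4, while 6253 to 7790, 7622 to 8699 and 1601 to 3249 of all genes tested were called. With DCKO libraries 1 and 2 left out together, edgeR called 0 genes in DCKO against DN3b, where it called 6.51% of all genes tested. There 3 of the 10 had an unadjusted p under 0.05, and no other tool was run. With DN3b library 1 left out as well, an added alternative chosen after seeing the data, it called 1, and 1157 of all 14484 genes tested. The replicate block, over the 8 libraries of a comparison, changed no call among the members it fitted in DN3b against DN3a; Hhex failed its filter. It gave Mef2c -0.94 (adjusted p = 0.0585, edgeR) in DCKO against DN3a. DCKO numbers pair nothing, so in comparisons with DCKO the block joins unrelated libraries and costs degrees of freedom. Calls lost with the block there, that of Myc included, are to be read with this limit.

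Sign changes were confined to uncalled values. Flt3 in DN3b against DN3a gave 0.036 under that added alternative and -0.12 to 0.059 with 1 library left out. In DCKO against DN3a, Lyl1 gave -0.124 with upper quartile scaling, -0.344 without DCKO libraries 1 and 2, -0.345 under the added alternative and -0.247 to 0.263 with 1 library left out; Tal1 gave -0.027, -0.171, -0.168 and -0.18 to 0.536 in that order, and -0.004 with limma-voom. In DCKO against DN3b, Mef2c gave -0.044 with upper quartile scaling, -0.009 with limma-voom, -0.02 with the replicate block, -0.317 without DCKO libraries 1 and 2, -0.163 under the added alternative and -0.202 to 0.271 with 1 library left out; Erg gave -0.062 without DCKO libraries 1 and 2 and -0.251 to 1.18 with 1 library left out. The cause was not tested. Depth limits the 6 scarce genes, at 0 to 30 counts a library.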

Other observations

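The authors' deposited tables put 7, 4 and 3 of the 10 genes past an adjusted p of 0.05 in DN3b against DN3a, DCKO against DN3a and DCKO against DN3b. The share of all genes past it there was not counted, so these counts have no background. In the authors' deposited table of DCKO against DN3a, Bcl11a was lower (log2 -0.70, adjusted p = 0.0344) and Cd34 was not past the threshold (adjusted p = 0.0751), the reverse of the calls given above.

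Lmo2 was fitted in 9 alternative settings, among them that with no low-count filter. In those edgeR fits it was lower in DN3b than in DN3a by log2 -2.37 to -1.99 and was called in all 9 (adjusted p 0.00572 to 0.0307). It was called in none of them in DCKO against DN3a (adjusted p 0.0704 to 0.517) or DCKO against DN3b (adjusted p 0.109 to 0.863). Where a filter was applied, Lmo2 passed it mainly through its DN3a libraries, so these calls are not independent of the filter. The exact permutation test of DN3b against DN3a, which did not use the pairing, gave an adjusted p of 0.0857.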
